A study of Harpegnathos saltator with 32 samples.

Results

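Kr-h1, br, ftz-f1, Ecr, usp and Eip93F are 6 transcription factor genes through which insects respond to juvenile hormone and to the steroid ecdysone. They were chosen by gene identifier, as factors of both hormone pathways, and they are 6 of the 14001 genes in the deposited expression table. Kr-h1 is LOC112589664, br is LOC105189635 and ftz-f1 is LOC105187567. Ecr is LOC105187295, usp is LOC105190116 and Eip93F is LOC105183699. All 6 were above 0 in each of the 32 libraries, and 5 of them passed the filter used for tests across genes, which asks for 1 FPKM (fragments per kilobase, scaled for depth) or more in at least 7 libraries. Kr-h1 reached 1 FPKM in 6 libraries and was tested apart.

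The libraries came from central brains of the ant Harpegnathos saltator, 1 brain per library, sequenced as strand-specific cDNA of polyadenylated RNA. Ants labelled as day 10 workers or day 10 gamergates received siRNA in the head against Kr-h1 or, as control, against GFP, in 5% glucose with a transfection reagent, and brains were taken 10 hours later. All 4 groups were therefore injected, and no uninjected brain is part of the comparison. A gamergate is a worker that has become reproductive; the caste label of these 17 libraries adds the word dueler. Worker brains gave 8 libraries with GFP siRNA and 7 with Kr-h1 siRNA, and gamergate brains gave 9 and 8. Libraries with GFP siRNA are called controls and those with Kr-h1 siRNA knockdowns. The protocol writes the control as GRP and the titles as GFP, and GFP is used here. The sample descriptions name 2 rounds of the experiment, called round 2 and round 3, and 2 sequencing runs. Round 2 gamergates were alone on run 200508, and every other library was on run 200626, so caste and run cannot be told apart in round 2. Within gamergates, round and run cannot be told apart either.

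Juvenile hormone binds a receptor of the bHLH-PAS family, which switches on Kr-h1, a zinc finger factor that in immature insects holds back metamorphosis. Ecdysone binds a heterodimer of the nuclear receptors Ecr and usp, which acts on early genes such as br, a family of BTB zinc finger proteins, and on the nuclear receptor ftz-f1 and the helix-turn-helix factor Eip93F. In flies and beetles Kr-h1 represses br or Eip93F at particular stages, and Eip93F marks the turn to the adult. In the brains of social insects both hormones differ between castes, and the study asked whether Kr-h1 acts differently in workers and gamergates.

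The target of the siRNA was examined first. In workers the control mean of Kr-h1 was 0.911 ± 0.701 FPKM (SD, n = 8) and the knockdown mean 0.438 ± 0.187 FPKM (SD, n = 7). In gamergates the control mean was 1.83 ± 2.28 FPKM (SD, n = 9) and the knockdown mean 0.443 ± 0.291 FPKM (SD, n = 8). The mean of log2(FPKM + 0.5) fell by 0.50 in workers (n = 7 and 8, exact two-sided permutation p = 0.0359) and by 0.97 in gamergates (n = 8 and 9, exact two-sided permutation p = 0.0105). With a batch term for round and run, limma without the filter gave Kr-h1 an unadjusted p of 0.117 in workers and 0.00106 in gamergates. Adjusted over 13199 genes, the limma p was 0.466 and 0.0845, so the fall did not pass there. The permutation p is for Kr-h1 alone, is not adjusted and takes no account of round or run. The limma fit has the batch term and a spread shared by all 4 groups, so the 2 measures are unlike. Before adjustment the limma p was already above the permutation p in workers, and it was below it in gamergates. In both castes the ranges of control and knockdown libraries overlapped in each round. In gamergate controls of round 2 Kr-h1 was at 7.57, 2.79, 1.87 and 0.995 FPKM, and in those of round 3 at 0.571, 0.683, 0.480, 0.676 and 0.809 FPKM, an order without overlap that 9.87% of the 9433 genes tested also had. These gamergate rounds were also on different runs. In round 2 the gamergate Kr-h1 siRNA libraries had 0.114, 0.580, 1.01 and 0.163 FPKM, and in round 3 they had 0.402, 0.627, 0.278 and 0.369 FPKM. The difference was -1.79 in round 2 and -0.32 in round 3 (exact permutation p = 0.0571 and 0.0556), and in workers it was -0.60 and -0.30 (exact permutation p = 0.143 and 0.20, with 0.1 the smallest p that 3 against 3 allows in round 3). With 1 library left out in turn, the worker permutation missed the threshold in 9 of 15 cases (exact p from 0.0579 to 0.0769), and the value was smallest, at -0.32, without worker GFP replicate 4. The gamergate permutation passed in 17 of 17 such cases (-1.08 to -0.70, exact p from 0.00482 to 0.0285). Recovered reads for Kr-h1 ran from 4 to 362 per library, so each of these levels rests on few reads.

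The 6 genes covered a wide range of levels. On the FPKM scale, which is per length, the median over 32 libraries was 0.580 for Kr-h1, 4.78 for br, 5.64 for Ecr, 6.41 for ftz-f1, 31.9 for usp and 107 for Eip93F. Eip93F stood at rank 200 from the top of 14001 genes, usp at rank 916, ftz-f1 at rank 4564, Ecr at rank 4976, br at rank 5505 and Kr-h1 at rank 9546. The ranges over single libraries of br, Ecr and ftz-f1, which are neighbours in this order, overlapped: br ran from 1.22 to 12.9 FPKM, Ecr from 3.61 to 11.6 FPKM and ftz-f1 from 4.10 to 9.41 FPKM. The range of usp (22.9 to 55.9 FPKM) lay above all of these, and that of Eip93F (73.1 to 177 FPKM) lay above usp. The target of the knockdown was thus the least abundant of the 6, and the most abundant was the factor that in other insects marks the adult program. The highest library was 66.4 times the lowest for Kr-h1, 10.6 times for br and 2.30 times for ftz-f1. In whole brains a lower level can mean fewer cells of a type or less RNA per cell, which cannot be told apart here.

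**Figure D1:**
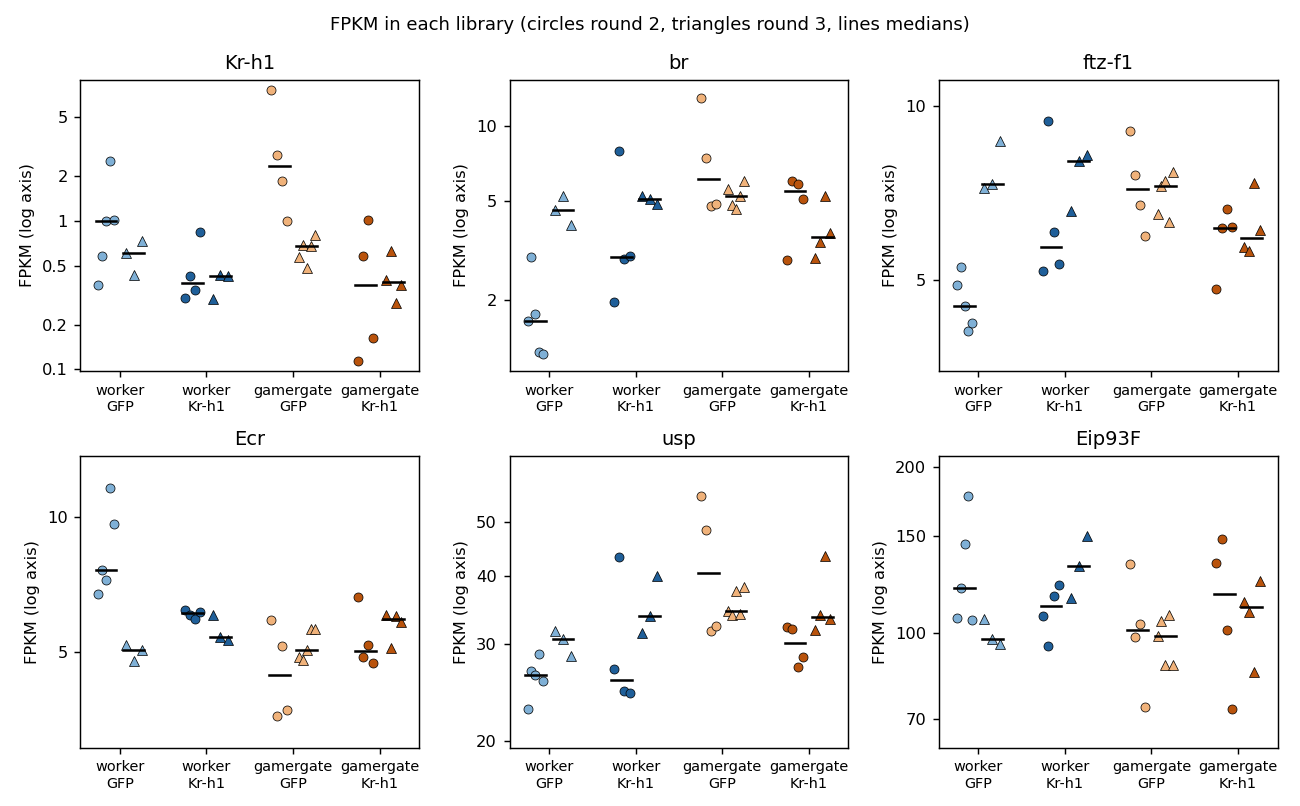
Level of each of the 6 genes in each library, in FPKM on a log axis, by group. Circles are round 2 libraries, triangles are round 3 libraries and lines are the medians of a round within a group; in worker controls the round 2 and round 3 values of br, ftz-f1 and Ecr do not overlap, as for 13.8% of genes that are higher and 12.7% that are lower in round 3.

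The receptor of ecdysone comes first. Ecr, the hormone-binding partner in the receptor, averaged 7.23 ± 2.39 FPKM (SD, n = 8) in worker controls, 5.87 ± 0.362 FPKM (SD, n = 7) in worker knockdowns, and 5.56 ± 0.673 FPKM (SD, n = 8) in gamergate knockdowns against 4.94 ± 0.806 FPKM (SD, n = 9) in gamergate controls. Round 2 worker controls had 6.73, 7.63, 7.23, 11.6 and 9.63 FPKM, and round 2 worker knockdowns had 6.2, 6.06, 5.94 and 6.16 FPKM. In that round every knockdown library was below every control. In round 3 the order was the opposite, with 5.19, 4.8 and 5.06 FPKM in controls and 6.04, 5.40 and 5.32 FPKM in knockdowns. Of all 9433 genes tested, 4.11% had round 2 worker knockdowns entirely below controls and 8.62% had round 3 worker knockdowns entirely above them. In gamergates, controls and knockdowns overlapped in both rounds, and the knockdown libraries were above the control median of their round in 4 of 4 libraries of each round.

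The partner of Ecr, usp, is the insect counterpart of the vertebrate retinoid X receptor. It averaged 27.7 ± 2.83 FPKM (SD, n = 8) in worker controls, 32.1 ± 7.38 FPKM (SD, n = 7) in worker knockdowns, and 32.8 ± 4.90 FPKM (SD, n = 8) in gamergate knockdowns against 38.5 ± 8.24 FPKM (SD, n = 9) in gamergate controls. The lowest, median and highest worker controls were at 22.9, 27.7 and 31.7 FPKM and the worker knockdowns at 24.4, 31.4 and 43.2 FPKM. The gamergate controls were at 31.7, 34.4 and 55.9 FPKM and the gamergate knockdowns at 27.2, 32.1 and 43.5 FPKM. Control and knockdown ranges overlapped in each caste and round. Ecr was below usp in all groups, at 0.326 ± 0.0582 FPKM of Ecr per FPKM of usp in round 2 worker controls (SD, n = 5) and 0.115 ± 0.0366 in round 2 gamergate controls (SD, n = 4). In round 3 the ratio was 0.166 ± 0.0103 in worker controls (SD, n = 3) and 0.147 ± 0.0115 in gamergate controls (SD, n = 5). After Kr-h1 siRNA the mean ratio was 0.216 and 0.179 in round 2 and 0.162 and 0.164 in round 3, for workers and gamergates in that order, so the castes were closer to each other in round 3 than in round 2. In round 2 caste and run cannot be told apart. The round 2 worker controls also include replicates 4 and 5, with the highest Ecr levels (11.6 and 9.63 FPKM).

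The early gene br showed the widest spread of the 5 genes that passed the filter. It averaged 2.83 ± 1.59 FPKM (SD, n = 8) in worker controls, 4.42 ± 1.98 FPKM (SD, n = 7) in worker knockdowns, and 4.39 ± 1.28 FPKM (SD, n = 8) in gamergate knockdowns against 6.25 ± 2.66 FPKM (SD, n = 9) in gamergate controls. Worker controls had 1.66, 2.98, 1.76, 1.24 and 1.22 FPKM in round 2 and 4.59, 5.21 and 4.00 FPKM in round 3, and 13.8% of genes likewise had all round 3 worker controls above all round 2 ones. Worker knockdowns had 1.98, 7.89, 2.94 and 3.01 FPKM in round 2 and 5.22, 5.08 and 4.86 FPKM in round 3. Within a round the worker ranges overlapped, but all 4 round 2 knockdowns and all 3 round 3 knockdowns were above the control median of their round. Gamergate controls had 12.9, 7.40, 4.78 and 4.86 FPKM in round 2 and 5.57, 4.79, 4.65, 5.22 and 6.02 FPKM in round 3. Gamergate knockdowns had 2.89, 6.00, 5.83 and 5.11 FPKM in round 2 and 2.96, 3.43, 5.21 and 3.73 FPKM in round 3, with ranges that overlapped the controls and with all 8 values below the control median of their round. How common such counts against the control median are among all genes is not given, here or for the other factors.

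The nuclear receptor ftz-f1, which in flies acts after the ecdysone pulse has passed, had the same order of groups as br. It averaged 5.79 ± 1.73 FPKM (SD, n = 8) in worker controls, 6.98 ± 1.61 FPKM (SD, n = 7) in worker knockdowns, and 6.08 ± 0.744 FPKM (SD, n = 8) in gamergate knockdowns against 7.18 ± 0.934 FPKM (SD, n = 9) in gamergate controls. Round 2 worker controls had 4.91, 5.27, 4.53, 4.10 and 4.22 FPKM and round 3 worker controls 7.21, 7.32 and 8.72 FPKM. Worker knockdowns had 5.18, 9.41, 6.07 and 5.33 FPKM in round 2 and 6.58, 8.05 and 8.22 FPKM in round 3. The ranges overlapped in both rounds, and in round 3 1 of 3 knockdowns was below the control median. In gamergates the lowest, median and highest controls were at 5.96, 7.28 and 9.08 FPKM and the knockdowns at 4.84, 6.14 and 7.36 FPKM, and 7 of 8 knockdowns were below the median of all gamergate controls.

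Eip93F, the adult factor, averaged 119 ± 28.1 FPKM (SD, n = 8) in worker controls, 120 ± 17.6 FPKM (SD, n = 7) in worker knockdowns, and 111 ± 24.7 FPKM (SD, n = 8) in gamergate knockdowns against 99.6 ± 16.8 FPKM (SD, n = 9) in gamergate controls. Round 3 worker knockdowns, at 116, 132 and 150 FPKM, were above all round 3 worker controls, at 106, 97.8 and 95.5 FPKM, a separation found for 8.62% of genes. In round 2 worker knockdowns had 108, 94.9, 117 and 122 FPKM and controls 106, 121, 145, 177 and 106 FPKM, so the ranges overlapped and the control mean was the higher one. The gamergate ranges overlapped in both rounds.

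The first comparison asks what Kr-h1 siRNA did to these genes in workers. None of the 5 genes in the filtered table was called (limma, all 32 libraries, threshold of 0.05 on the adjusted p), and 0% of all 9433 genes were called. At an unadjusted p under 0.05 the fit counted 1618 genes, and limma voom on recovered reads called 0. Log2 differences, knockdown minus control, were 0.57 ± 0.22 for br (SE; limma adjusted p = 0.218), 0.24 ± 0.11 for ftz-f1 (adjusted p = 0.267), -0.20 ± 0.11 for Ecr (adjusted p = 0.337), 0.17 ± 0.12 for usp (adjusted p = 0.457) and 0.03 ± 0.14 for Eip93F (adjusted p = 0.931). For Eip93F the 95% interval of the difference, which is not adjusted over genes, ran from -0.27 to 0.32. For br it ran from 0.12 to 1.01 and for ftz-f1 from 0.02 to 0.47, so neither of these held 0.

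In gamergates 68 genes were called, 0.721% of those tested, and none of the 5 was among them. The log2 differences were -0.46 ± 0.20 for br (SE; limma adjusted p = 0.156), -0.22 ± 0.10 for ftz-f1 (adjusted p = 0.171), 0.17 ± 0.10 for Ecr (adjusted p = 0.279), -0.22 ± 0.11 for usp (adjusted p = 0.217) and 0.14 ± 0.14 for Eip93F (adjusted p = 0.516). For br, ftz-f1, Ecr and usp the sign was opposite to that in workers, and for Eip93F it was the same.

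The third comparison is the difference between these effects, gamergate minus worker, and here br and ftz-f1 passed. The difference of the log2 effect was -1.02 ± 0.30 for br (SE; limma adjusted p = 0.0261), and -0.46 ± 0.15 for ftz-f1 (SE; adjusted p = 0.0374). It was 0.37 ± 0.15 for Ecr (adjusted p = 0.0827), -0.39 ± 0.17 for usp (adjusted p = 0.0958) and 0.11 ± 0.20 for Eip93F (adjusted p = 0.717), which did not pass. The effect thus differed between castes for 2 of 5 genes, while 16.5% of all genes tested were called in this comparison and 7.01% were called with a lower effect in gamergates. By rank of p, br was at place 660 and ftz-f1 at place 1144 of 9433, so neither was among the foremost genes of this comparison. The direction was the same in both rounds, but the size was not, and neither gene passed within a single round. For br the difference was -1.35 in round 2 (adjusted p = 0.0922) and -0.56 in round 3 (adjusted p = 0.338), and for ftz-f1 it was -0.70 (adjusted p = 0.0782) and -0.15 (adjusted p = 0.696). Without worker Kr-h1 replicate 2 alone the br difference was -0.79 (adjusted p = 0.0551) and the ftz-f1 difference -0.35 (adjusted p = 0.0789), so both calls were lost. The call of ftz-f1 was also lost without any 1 of 9 other libraries, namely gamergate GFP replicates 1 and 2, worker GFP replicates 3, 4 and 5, gamergate Kr-h1 replicates 1, 5 and 6 and worker Kr-h1 replicate 3 (limma adjusted p from 0.0509 to 0.0671).

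**Figure D2:**
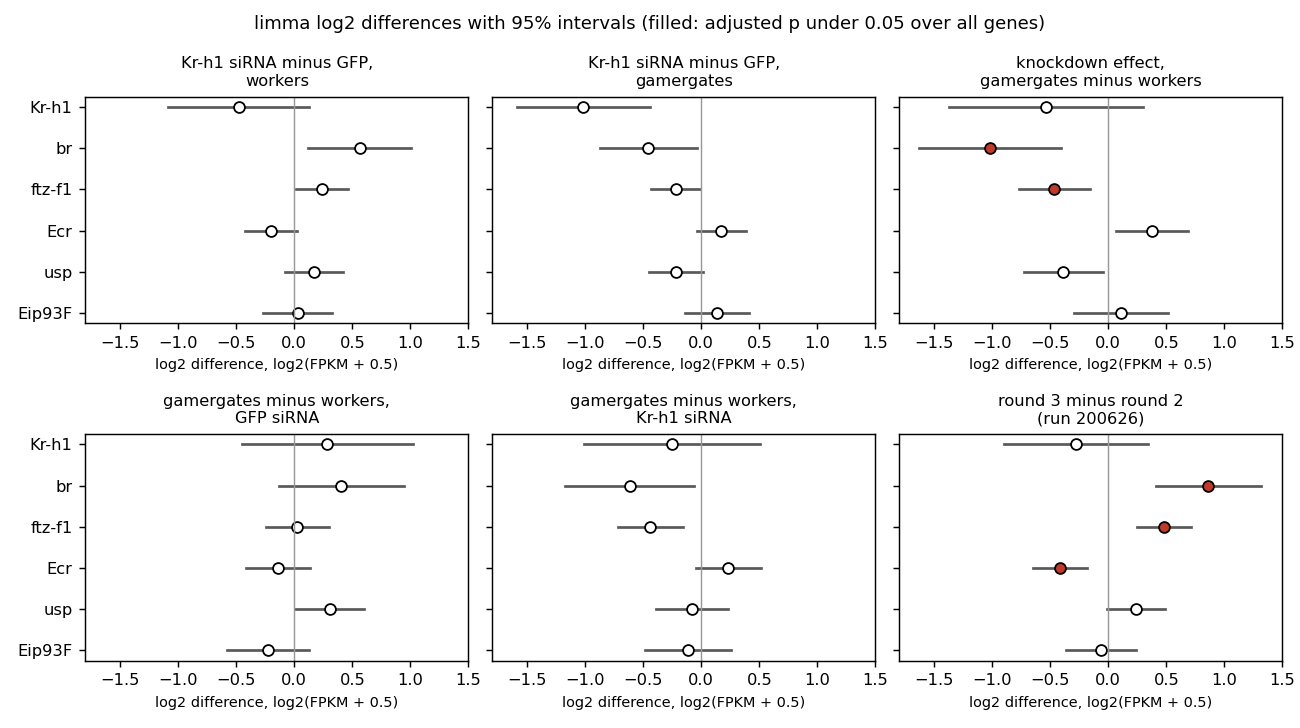
Log2 difference of each of the 6 genes in 6 comparisons, on the log2(FPKM + 0.5) scale, with points for the limma estimate and lines for its 95% interval. Filled points have an adjusted p under 0.05 over all genes: br and ftz-f1 in the difference of effects (-1.02 and -0.46), and br, ftz-f1 and Ecr between rounds (0.86, 0.48 and -0.42); Kr-h1 is from the fit without the filter.

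The castes were also compared under each siRNA, gamergate minus worker. Caste and run are separate only in round 3, while the fit with the batch term also draws on the knockdown effects of round 2. In GFP controls 1.33% of genes were called and none of the 5 passed. The log2 differences were 0.41 ± 0.26 for br (SE; limma adjusted p = 0.363), 0.03 ± 0.13 for ftz-f1 (adjusted p = 0.928), -0.14 ± 0.13 for Ecr (adjusted p = 0.546), 0.31 ± 0.14 for usp (adjusted p = 0.219) and -0.23 ± 0.18 for Eip93F (adjusted p = 0.449). From round 3 alone ftz-f1 was at -0.13 and Ecr at 0.05 in GFP controls, opposite in sign to the values of that fit. Under Kr-h1 siRNA 0.17% of genes were called and again none of the 5. The log2 differences there were -0.62 ± 0.27 for br (adjusted p = 0.285), -0.44 ± 0.14 for ftz-f1 (adjusted p = 0.146), 0.23 ± 0.14 for Ecr (adjusted p = 0.417), -0.08 ± 0.15 for usp (adjusted p = 0.821) and -0.12 ± 0.18 for Eip93F (adjusted p = 0.782). Without the batch term, which mixes caste with run, 4436 of 9433 genes (47%) were called in GFP controls, among them 4 of the 5: br at 1.10, ftz-f1 at 0.33, Ecr at -0.47 and usp at 0.45.

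Between the experimental rounds 3 of the 5 genes differed. This comparison, round 3 minus round 2 on run 200626, was added after the values were seen and rests on worker libraries. Relative to round 2, br was higher in round 3 by 0.86 ± 0.22 (SE; limma adjusted p = 0.0229) and ftz-f1 by 0.48 ± 0.11 (adjusted p = 0.0167), while Ecr fell by 0.42 ± 0.11 (adjusted p = 0.0295). For usp the difference was 0.24 ± 0.12 (adjusted p = 0.222) and for Eip93F -0.06 ± 0.15 (adjusted p = 0.819). Of all genes, 6.4% were called, 3.41% higher and 2.99% lower in round 3. In worker controls br averaged 1.77 ± 0.718 FPKM in round 2 (SD, n = 5) and 4.60 ± 0.605 FPKM in round 3 (SD, n = 3), and Ecr averaged 8.56 ± 2.01 and 5.01 ± 0.2 FPKM. The 3 calls were lost without any 1 of the 3 round 3 worker controls (adjusted p from 0.0551 to 0.105), that of Ecr also without worker GFP replicate 5 (adjusted p = 0.0519), and all 3 without worker GFP replicates 4 and 5 together.

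Properties of single libraries moved with these genes. Recovered reads ran from 7.57 to 22.8 M per library, within-group Spearman correlations were 0.932 to 0.985, and identical pairs of libraries numbered 0. Neuron markers, 9 of 9 detected, summed to between 454 and 834 FPKM in every library. Of 1056 genes with a median of 5 to 20 reads, a median of 1.85% per library was listed at 0, but 35.6% in replicate 4 and 19.5% in replicate 5 of the worker GFP group. Those 2 libraries had the highest Ecr (11.6 and 9.63 FPKM) and the lowest br (1.24 and 1.22 FPKM) of all libraries. Without both, the difference of effects was -0.85 for br (adjusted p = 0.0658) and -0.39 for ftz-f1 (adjusted p = 0.0892).

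Libraries also differed in how levels depended on gene span. The correlation across genes of a library's log2 deviation from the mean with the span of the gene ran from -0.428 to 0.542, and was highest in gamergate GFP replicate 1 (0.542), worker Kr-h1 replicate 2 (0.436) and gamergate GFP replicate 2 (0.396). These 3 libraries had the 3 highest br levels, at 12.9, 7.89 and 7.40 FPKM, and 3 of the 4 highest usp levels. Fat body markers, 4 of 4 detected, summed to 408, 369 and 324 FPKM in the same 3 libraries and to 396 FPKM in gamergate GFP replicate 3, against a median of 189 FPKM over all libraries. Haemocyte markers, 4 of 4 detected, summed to 14.9, 9.58 and 8.34 FPKM in the same 3, with a median of 6.11 FPKM over all libraries. They were higher than in the third of these in gamergate GFP replicate 3 (12.2 FPKM, with br at 4.78 FPKM), gamergate GFP replicate 9 (8.90 FPKM) and gamergate Kr-h1 replicate 3 (8.45 FPKM). Once the trend over gene span was taken out of every library, the difference of effects was -0.82 for br (adjusted p = 0.0672) and -0.26 for ftz-f1 (adjusted p = 0.165), neither passing, and 0.56 for Ecr (adjusted p = 0.0382), which then passed. Without gamergate GFP replicates 1 and 2 the difference was -0.84 for br (adjusted p = 0.0909) and -0.39 for ftz-f1 (adjusted p = 0.120). Kr-h1 was highest of all libraries in gamergate GFP replicates 1 and 2, at 7.57 and 2.79 FPKM. Next came worker GFP replicate 4, with 35.6% of low-count genes at 0, at 2.54 FPKM and gamergate GFP replicate 3 at 1.87 FPKM. In worker Kr-h1 replicate 2 it was at 0.427 FPKM. The part of fat body and haemocyte RNA in the levels of Kr-h1, br and usp was not tested.

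Marker lists of cell types were followed in the same comparisons. In the difference of effects, 7 of 7 muscle markers tested were above 0 (median log2 difference 1.29, 0 called), 11 of 11 glia markers were below 0 (median -0.34, 2 called), and 7 of 9 retina markers were below 0 (median -0.58), with 1 of the other 2 called higher. All 4 haemocyte markers (median -0.51) and both fat body markers tested (median -0.63) were below 0, with 1 called in each list, and 6 of 9 neuron markers were below 0 (median -0.11, 1 called), beside a median of 0.01 over all genes. Of all genes, 16.5% were called in this comparison. In worker knockdown 7 of 7 muscle markers were below 0 (median -1.37, 0 called). In GFP controls 4 of 11 glia markers were called higher in gamergates (list median 0.34) and 2 of 9 retina markers lower, with the other 7 above 0 (list median 0.62). The share of all genes called there was 1.33%. The summed level of all muscle markers was 66.2 to 278 FPKM in worker controls, 48.1 to 97.6 in worker knockdowns, 55.6 to 101 in gamergate controls and 43.3 to 438 FPKM in gamergate knockdowns. For glia the sums in the same order were 851 to 1337, 867 to 1226, 979 to 1661 and 834 to 1350 FPKM, and for retina 73.3 to 941, 47.2 to 724, 63.4 to 813 and 57.1 to 643 FPKM. The part of these cells in the calls of br and ftz-f1 was not tested.

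**Figure D3:**
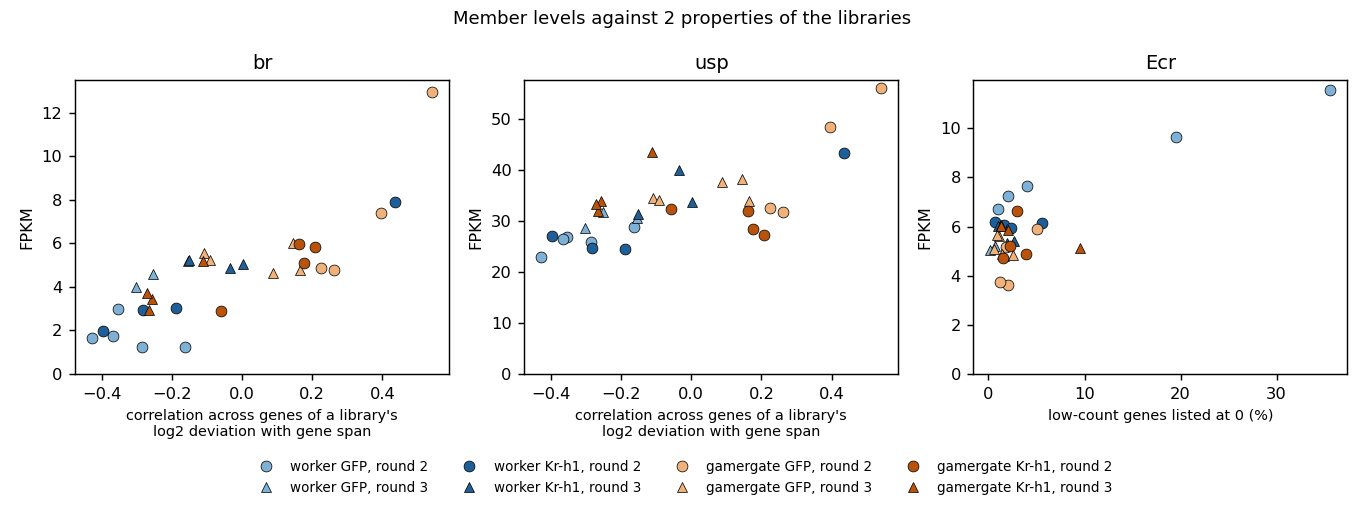
Levels of br and usp in FPKM against the correlation of a library's log2 deviation with gene span, and of Ecr against the percent of low-count genes listed at 0; each point is a library, with colour for the group and shape for the round. The 3 libraries with the highest span correlation have the 3 highest br values, and the 2 worker controls with 35.6% and 19.5% of low-count genes at 0 have the 2 highest Ecr values.

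Levels of several of the genes were correlated across libraries. Pearson's r over the 32 libraries, given as a description since libraries share group, batch and the properties above, was 0.86 between br and ftz-f1, 0.76 between br and usp and 0.69 between ftz-f1 and usp. Ecr ran against them, at -0.69 with br and -0.61 with ftz-f1, and with Eip93F it was at 0.54. Kr-h1 was at 0.06 to 0.39 with the other 5 genes. After group and batch means were removed, br and ftz-f1 remained at 0.84, br and usp at 0.59 and Ecr and Eip93F at 0.55, while Ecr and br were at -0.24 and Ecr and ftz-f1 at -0.29. The partners of the ecdysone receptor, Ecr and usp, were at -0.38 and, with means removed, at 0.18, so the sign changed.

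**Figure D4:**
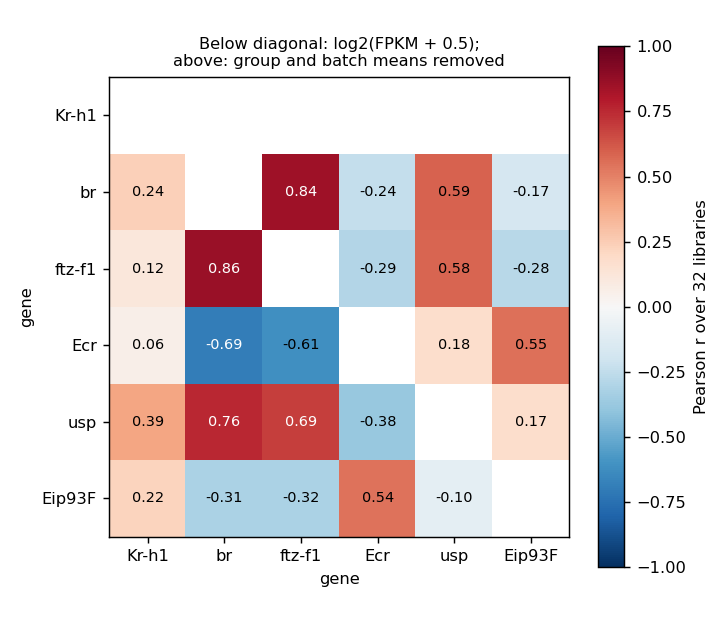
Pearson correlation over 32 libraries between each pair of the 6 genes, from log2(FPKM + 0.5) below the diagonal and with group and batch means removed above it (not computed for Kr-h1). The pair br and ftz-f1 has the highest value on both sides (0.86 and 0.84), and Ecr with br the lowest below the diagonal (-0.69).

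Among 3871 other genes with a symbol, those most like br over the 32 libraries were dtn (r = 0.944), lgs (0.943), dom (0.939), px (0.935) and Oamb (0.935), the last an octopamine receptor. The ones most like ftz-f1 were sick (0.902), ckn (0.900), Sema5c (0.871), tna (0.867) and IntS6 (0.866), and those most like usp were Sap47 (0.885), Sdc (0.857), Gbeta13F (0.848), jdp (0.838) and GluClalpha (0.815). Ecr was most like the stress-linked factor Atf3 (0.912), eIF2beta (0.909), hzg (0.888), the acetylcholine-synthesising enzyme ChAT (0.881) and pygo (0.880), and Eip93F was most like lilli (0.833), the DNA-modifying enzyme Tet (0.813), sm (0.796), Camta (0.786) and ken (0.781). With group and batch means removed, the genes most like Ecr were POSH (0.899), SPoCk (0.897), Hr3 (0.889), an ecdysone-induced nuclear receptor in flies, kibra (0.880) and tyf (0.874). By the same measure those most like br were dtn (0.902), rho-5 (0.902), puf (0.898), ckn (0.894) and Ufd4 (0.892), and those most like ftz-f1 were Ufd4 (0.903), tweek (0.884), Vinc (0.883), Cals (0.882) and Sec16 (0.879). For usp they were spri (0.914), Usp7 (0.833), Nlg3 (0.828), KrT95D (0.826) and sei (0.811), and for Eip93F lilli (0.875), Camta (0.864), sff (0.863), bru3 (0.852) and bsk (0.842). High values were common: 17.0% of 9432 genes had an r beyond 0.7 in size with br, 12.7% with Ecr, 6.5% with ftz-f1, 3.0% with usp and 0.9% with Eip93F. With means removed the shares were 8.0% for br, 5.5% for Ecr, 6.7% for ftz-f1, 1.8% for usp and 1.8% for Eip93F.

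Other genes of both pathways were followed in 6 lists, which hold only genes that matched by symbol. Of the planned symbols, Met and gce, the juvenile hormone receptor genes of flies, and tai, Jhe, Fpps and spo are not in them. The lists therefore cover each pathway only in part. Neither siRNA comparison within a caste called any of them, against 0% and 0.721% of all genes, and neither did the caste comparisons. In the difference of effects 1 of 6 genes of juvenile hormone reception and response was called, 1 of 5 of juvenile hormone synthesis, 1 of 9 ecdysone response genes and nuclear receptors and 1 of 12 nuclear receptor coregulators, against 16.5% of all genes (9.47% higher and 7.01% lower); 0 of 6 ecdysteroid genes and 0 of 2 temporal factors were called. The medians of the log2 difference in those lists, in the same order, were 0.03, -0.05, -0.12, -0.02, -0.07 and 0.13, beside 0.01 for all genes.

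In synthesis the called gene was Idi, an isomerase of the mevalonate pathway that feeds juvenile hormone. Idi averaged 24.6 ± 1.92 FPKM (SD, n = 8) in worker controls, 19.6 ± 3.50 FPKM (SD, n = 7) in worker knockdowns, and 20.7 ± 2.65 FPKM (SD, n = 8) in gamergate knockdowns against 18.8 ± 3.77 FPKM (SD, n = 9) in gamergate controls. Its log2 effect differed between castes by 0.50 ± 0.14 (SE; limma adjusted p = 0.0233). In reception Fkbp39, an immunophilin that in flies binds a juvenile hormone response element, differed by 0.49 ± 0.17 (adjusted p = 0.0496), from 19.6 ± 4.89, 16.5 ± 2.50, 10.0 ± 3.46 and 12.1 ± 4.11 FPKM in worker controls, worker knockdowns, gamergate controls and gamergate knockdowns, in that order. ERR, an orphan nuclear receptor, differed by -0.36 ± 0.11 (adjusted p = 0.0299), from 6.54 ± 0.543, 7.58 ± 0.898, 7.63 ± 1.22 and 6.78 ± 0.841 FPKM. Among coregulators alien, a subunit of the COP9 signalosome that in flies binds the ecdysone receptor, differed by 0.65 ± 0.20 (adjusted p = 0.0324), from 13.9 ± 3.71, 11.0 ± 1.58, 9.23 ± 2.32 and 11.6 ± 2.37 FPKM. The means of these 4 genes pool both rounds, and in round 2 caste and run cannot be told apart. In round 3 controls alone, Fkbp39 ran from 14.2 to 14.9 FPKM in workers and 10.7 to 15.6 FPKM in gamergates. With both rounds together, the knockdown mean in ERR, as in br and ftz-f1, was above the control in workers and below it in gamergates. In Idi, Fkbp39 and alien the reverse held. Single rounds did not all keep this order. In round 3 workers ftz-f1 averaged 7.75 FPKM in controls and 7.62 FPKM in knockdowns. Fkbp39 there ran from 14.2 to 14.9 FPKM in controls and 14.7 to 16.6 FPKM in knockdowns. For alien the ranges were 9.25 to 11.2 and 11.35 to 12.0 FPKM, without overlap, as for 8.62% of genes. In round 3 gamergates Idi ran from 20.3 to 23.2 FPKM in controls and 19.45 to 24.36 FPKM in knockdowns. The 4 calls went to 0 with the trend over gene span removed, without worker Kr-h1 replicate 2 and without the first 2 gamergate GFP replicates together.

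In the lists with no call in these comparisons, the members with the smallest p were the following. Oatp74D, the ecdysone importer of flies, had a log2 difference of -0.49 ± 0.20 between castes under Kr-h1 siRNA (SE; limma adjusted p = 0.256), and vvl, a POU factor, -0.22 ± 0.11 in gamergates after Kr-h1 siRNA (adjusted p = 0.190). Of the temporal factors Syp, an RNA-binding protein, had -0.42 ± 0.16 between castes in GFP controls (adjusted p = 0.140) and chinmo, a BTB zinc finger factor, -0.19 ± 0.13 under Kr-h1 siRNA (adjusted p = 0.483). Between rounds Hmgs, an enzyme of the mevalonate pathway, rose by 0.29 ± 0.08 (adjusted p = 0.0283), and Eip63E, a cyclin-dependent kinase, fell by 0.41 ± 0.12 (adjusted p = 0.0428). Npc1a, a sterol transporter, fell by 0.35 ± 0.09 (adjusted p = 0.0231) and brm, the ATPase of the SWI/SNF complex, fell by 0.52 ± 0.16 (adjusted p = 0.0421). Of all genes 6.4% were called between rounds, and these 4 list calls became 0 without worker GFP replicate 6 or 7, 1 without replicate 8 and 0 without worker GFP replicates 4 and 5 together, with 0 to 10 over all fits that leave out 1 library.

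A late enzyme of juvenile hormone synthesis, jhamt, is described because its values fell into separate levels, and it was chosen after they were seen. It was at or above 1 FPKM in 17 of 32 libraries and below 0.2 FPKM in 14, of which 5 were listed at 0. Libraries at or above 1 FPKM numbered 5 of 8 in worker controls, 4 of 7 in worker knockdowns, 5 of 9 in gamergate controls and 3 of 8 in gamergate knockdowns. Its log2 difference after Kr-h1 siRNA was -0.44 ± 0.82 in workers (SE; limma adjusted p = 0.792) and -1.14 ± 0.77 in gamergates (adjusted p = 0.332), so it did not pass in either caste. This enzyme is known from the corpora allata, glands attached to the brain, and how much of them a dissected brain kept was not tested.

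**Figure D5:**
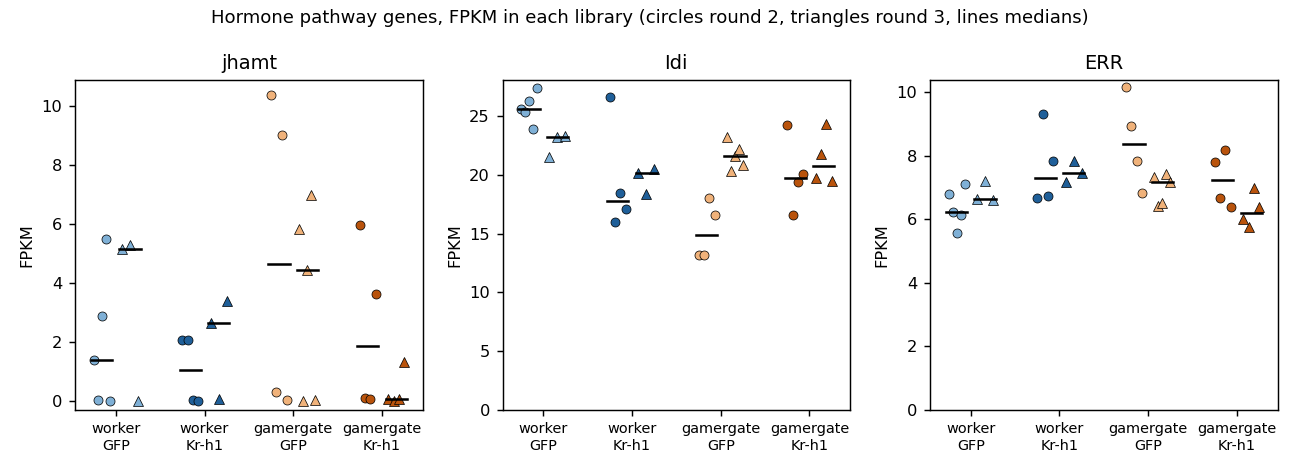
Level of jhamt, Idi and ERR in each library in FPKM by group, with circles for round 2, triangles for round 3 and lines for medians. The gene jhamt is at or above 1 FPKM in 17 of 32 libraries and below 0.2 FPKM in 14; Idi averages 24.6 FPKM in worker controls and 19.6 FPKM in worker knockdowns.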

How the data were processed

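Gene expression was measured in 32 libraries, each from a single central brain. The deposited values are FPKM for 14001 genes, made by the authors before deposit. The tools named in the submitters' processing notes, without version or role, are DESeq2, featureCounts, STAR and bcl2fastq. Genome build and strand use in counting were not given in the sources used here, and neither coordinates nor sequences are printed. Of the identifiers, 13989 matched RefSeq assembly Hsal_v8.6, used for symbols and gene span, and 12 did not.

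From these values log2(FPKM + 0.5) was fitted by limma 3.58.1 (R 4.3.3) for 9433 genes reaching 1 FPKM in 7 or more libraries, with 4 group coefficients, a batch term of 3 levels (round and run) and eBayes with trend. The threshold was 0.05 on p adjusted over all genes by Benjamini-Hochberg. Log2 differences understate the change of low genes. Kr-h1 was tested by exact permutation within caste and by limma without the filter. Read numbers were recovered from the FPKM steps for 12685 of 12692 genes detected in at least 3 libraries (99.9%, tolerance of 0.02 reads), and limma voom on them is an alternative.

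The genes, lists and markers were chosen with earlier results of these data known. Named genes are the 6 factors, the list members called in any comparison or otherwise those with the smallest p, and for each factor the 5 genes with the highest correlation. List symbols that matched only in another letter case, where that symbol names another gene, were left out. The series' design text says that replicates are individual brains. Same-numbered libraries of different groups were not paired by any label. Alternatives covered pseudocount, filter, scaling, batch term, round, replicate block, groups fitted, weights, robust variance, gene span, recovered reads and each library left out; 3 were added after the data were seen, namely recovered reads and leaving out 2 pairs of libraries.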

Additional observations from a re-analysis of the deposited data

Results flagged for a closer look

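Among the 6 genes in 4 groups, 24 sets of values, 5 single libraries stood apart from the others of their group by Dixon's criterion, which by chance marks about 1 in 20 sets of normally distributed values. The sets here are untransformed FPKM with both rounds together, so that rate need not hold for them. Kr-h1 was at 2.54 FPKM in worker GFP replicate 4, at 0.840 FPKM in worker Kr-h1 replicate 4 and at 7.57 FPKM in gamergate GFP replicate 1. In that same gamergate control br was at 12.9 FPKM, and usp was at 43.5 FPKM in gamergate Kr-h1 replicate 7. The effect of Kr-h1 siRNA differed between gamergates and workers by the limma test of the difference for 2 of the factors, br (-1.02 on the log2 scale) and ftz-f1 (-0.46), and for 4 other pathway genes, Fkbp39 (0.49), Idi (0.50), ERR (-0.36) and alien (0.65). These 6 differences are past the threshold in a comparison that called 16.5% of all genes.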

How the results depend on the processing

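Directions and calls of the 5 factors that passed the filter were recomputed under each alternative, with 32 fits that leave out 1 library each. No factor was called in either knockdown comparison under any alternative run. The br difference of effects stayed past the threshold in 31 of 32 such fits (-1.12 to -0.79) and that of ftz-f1 in 22 of 32 (-0.52 to -0.35). It was lost for both without the batch term, within either round, with the replicate block, with the span trend removed, with recovered reads and without either pair of libraries, and for ftz-f1 also with array weights and with no filter. The cause was not tested. In this paragraph, "genes" means all genes called, "factors" the called among the 5 or 6, and "list genes" the called among the pathway lists. The main counts were 0, 68, 1554, 125 and 16 genes in worker knockdown, gamergate knockdown, difference of effects, caste in GFP controls and caste under Kr-h1 siRNA, with 2 factors and 4 list genes in the difference of effects. Under the replicate block the counts were 113, 698, 53 and 3 genes from gamergate knockdown on, with 0 factors and 1 list gene in the difference of effects (br -0.95, adjusted p = 0.0504). Same-numbered libraries did not vary together: 45 pairs had a mean correlation of -0.011 (range -0.495 to 0.564), and 6 of 32 libraries correlated best with their own number. With no batch term 0 genes were called in gamergate knockdown, and 0 genes, 0 factors and 0 list genes in the difference of effects; caste in GFP controls gave 4436 genes, 4 factors and 20 list genes, and caste under Kr-h1 siRNA turned to 0.048 for br, -0.079 for Ecr and 0.051 for usp. With no filter there were 11 genes in gamergate knockdown, 1 factor in the difference of effects, and 81 and 6 genes in the caste comparisons. A filter at 5 FPKM gave 28 genes for caste under Kr-h1 siRNA. Quantile normalization gave 188 and 27 genes in the caste comparisons and turned Eip93F to -0.099 in the difference of effects and 0.086 between rounds. Array weights gave 5, 820, 817, 1106 and 395 genes, 1 factor and 0 list genes in the difference of effects, 3 list genes in gamergate knockdown, 3 in GFP controls, 1 factor and 2 list genes under Kr-h1 siRNA, and -0.051 for ftz-f1 in GFP controls. With the trend over gene span removed there were 0 genes in gamergate knockdown, 213 genes, 1 factor and 0 list genes in the difference of effects and 43 genes for caste under Kr-h1 siRNA; Eip93F was -0.063 in workers, ftz-f1 -0.081 in GFP controls and usp 0.021 under Kr-h1 siRNA. Recovered reads gave 343 genes and 1 list gene in gamergate knockdown, 1 factor in the difference of effects (Ecr), 648 genes and 5 list genes in GFP controls, 9 genes under Kr-h1 siRNA and -0.084 for ftz-f1 in GFP controls. Fits to only the groups compared gave 179, 0 and 0 genes in gamergate knockdown and both caste comparisons, with ftz-f1 at -0.129 and Ecr at 0.048 in GFP controls and usp at 0.020 and Kr-h1 at 0.045 under Kr-h1 siRNA. Round 2 alone gave 11 genes in gamergate knockdown, 0 genes, 0 factors and 0 list genes in the difference of effects, and Eip93F at -0.224 in workers. Round 3 alone gave 6 genes in gamergate knockdown, again 0, 0 and 0 in the difference of effects, 56 and 69 genes in the caste comparisons and 3 list genes under Kr-h1 siRNA. There ftz-f1 was -0.025 and Ecr 0.141 in workers, Ecr -0.007 and Eip93F -0.262 in the difference of effects, ftz-f1 -0.129 and Ecr 0.048 in GFP controls, and usp 0.020 and Kr-h1 0.045 under Kr-h1 siRNA. Without worker GFP replicates 4 and 5 there were 368 genes and 1 list gene in gamergate knockdown, 620 genes, 0 factors and 2 list genes in the difference of effects and 25 genes under Kr-h1 siRNA; ftz-f1 was -0.011 in GFP controls and Eip93F 0 between rounds. Without gamergate GFP replicates 1 and 2 there were 0 genes in gamergate knockdown, 1 gene, 0 factors and 0 list genes in the difference of effects and 3 genes under Kr-h1 siRNA, with ftz-f1 at -0.009 in GFP controls and usp at 0.016 under Kr-h1 siRNA. The Kr-h1 fall missed the threshold in limma with the batch term (-0.48 and -1.02 in workers and gamergates), within round 2 (-0.60 and -1.79) and within round 3 (-0.30 and -0.32).

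With 1 library left out, genes called ran from 0 to 866 in gamergate knockdown, 399 to 2191 in the difference of effects, 26 to 231 in GFP controls and 2 to 71 under Kr-h1 siRNA. In the difference of effects factors ran from 0 to 3 and list genes from 0 to 5, and list genes ran from 0 to 3 in gamergate knockdown. The Kr-h1 value by permutation ran from -0.58 to -0.32 in workers (exact p from 0.0127 to 0.0769) and from -1.08 to -0.70 in gamergates (exact p from 0.00482 to 0.0285). By limma it ran from -1.13 to -0.76 in gamergates, where the adjusted p passed without worker Kr-h1 replicate 2 alone. Eip93F in workers ran from -0.036 to 0.110, ftz-f1 in GFP controls from -0.034 to 0.117 and Eip93F between rounds from -0.14 to 0.008, each changing sign. For Kr-h1, 4 to 362 reads per library limit the precision.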

Other observations

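Several genes of both pathways lay under the filter or near 0 in these brains. The ecdysteroid hydroxylases dib, sad and shd had medians of 0.123, 0.112 and 0.0544 FPKM over the 32 libraries, and sro, a dehydrogenase of the same pathway, had 0.654 FPKM. The nuclear receptors tll and Hr83 had a median of 0. Against them stood E75, an ecdysone-induced nuclear receptor, at a median of 113 FPKM and Hr3 at 26.0 FPKM, named here after their values were seen. After Kr-h1 siRNA the log2 difference of E75 was 0.07 ± 0.12 in workers (SE; limma adjusted p = 0.788) and 0.04 ± 0.12 in gamergates (adjusted p = 0.837), and that of Hr3 was 0.02 ± 0.14 (adjusted p = 0.94) and 0.13 ± 0.13 (adjusted p = 0.538).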
